A study of Arabidopsis thaliana with 21 samples.

Results

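Of 11115 sites enriched for acetylated histone H4 (H4Ac) in wild-type (WT) Arabidopsis seedlings, 7036 (63.3%) had no base under any H2A.Z peak, and these H2A.Z-free H4Ac sites are described here. A WT H4Ac site was built from peaks that had at least 50% of their own length in a peak of another WT H4Ac library, then pooled and joined wherever 200 bp or more were shared. The sites were selected on the absence of H2A.Z peaks, so that absence is not a result. A site was free when it did not touch any peak of 3 WT and 3 mbd9-1 H2A.Z libraries, and the other 4079 sites are called touched. The lists give only the position of each peak, without height, read count or score, so that a site free of H2A.Z peaks can still carry H2A.Z below the level at which the peaks were called.

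All plants were in the Col-0 background and were grown to 6 days, and the seedlings were cross-linked after their roots had been removed. WT carried no mutation, and mbd9-1 carried a mutant allele of MBD9, which encodes a methyl-CpG-binding domain protein. There were 3 biological replicates per group, and the chromatin of each sample was split between the H2A.Z and the H4Ac immunoprecipitation. Whole seedling shoots hold many cell types, so a peak is an average over them, and fewer cells with a mark cannot be told apart from less of the mark per cell. Input, mbd9-1 H4Ac and all arp6-1 libraries were not analysed here.

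Acetylation of the histone H4 tail neutralises positive charges on lysines, loosens chromatin and is found at the start of transcribed genes. H2A.Z is a variant of histone H2A that the SWR1 complex puts into nucleosomes in place of canonical H2A. In plants it is known for the first nucleosomes after the transcription start site (TSS) and for the bodies of genes that respond to the environment. In yeast, the bromodomain of a SWR1 subunit binds acetylated histones, which is one reason to ask what distinguishes acetylated sites with and without H2A.Z.

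The WT H4Ac libraries had 12030, 10565 and 10439 peaks for replicates 1, 2 and 3. The H2A.Z lists were shorter and unequal, with 6263 to 9260 peaks in WT and 5215 to 5733 in mbd9-1. In mbd9-1 replicate 3 the median peak width was 381 bp, which was also the narrowest width in that list, against medians of 587 to 668 bp in the other H2A.Z libraries. The reads behind each list are not known from these data.

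The sequences of 3 H2A.Z-free sites are shown first, because a centre in an intron was more common at free than at touched sites in every library. Each has 200 bases on the strand of the gene, taken from the RefSeq sequence of TAIR10.1, and the bases in capitals belong to an intron of the longest coding transcript. AT1G36730 encodes a translation initiation factor of the IF2/IF5 type, H2AXA a histone of the H2A family and AT1G76700 a protein with a DnaJ chaperone domain.
AT1G36730 intron 1 (chr1:13900348-13900547, - strand): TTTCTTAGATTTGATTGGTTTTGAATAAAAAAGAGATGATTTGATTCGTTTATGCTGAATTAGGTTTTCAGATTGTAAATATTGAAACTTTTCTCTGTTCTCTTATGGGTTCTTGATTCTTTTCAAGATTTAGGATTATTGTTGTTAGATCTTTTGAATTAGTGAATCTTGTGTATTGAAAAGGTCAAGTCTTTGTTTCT
H2AXA (chr1:2847297-2847496, - strand): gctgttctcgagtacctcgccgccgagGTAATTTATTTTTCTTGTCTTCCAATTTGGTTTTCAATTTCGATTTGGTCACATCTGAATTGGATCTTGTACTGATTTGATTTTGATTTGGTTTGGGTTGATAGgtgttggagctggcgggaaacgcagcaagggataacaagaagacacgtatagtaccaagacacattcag
AT1G76700 (chr1:28782819-28783018, - strand): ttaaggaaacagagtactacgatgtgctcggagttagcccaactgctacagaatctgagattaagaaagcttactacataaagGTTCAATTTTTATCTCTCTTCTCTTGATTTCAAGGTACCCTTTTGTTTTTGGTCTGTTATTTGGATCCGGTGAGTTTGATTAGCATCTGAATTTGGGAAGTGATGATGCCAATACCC
All 200 bases of the AT1G36730 window were intronic and its GC content was 27.5%. In the windows of H2AXA and AT1G76700, 104 and 117 of the 200 bases lay in the intron, and the GC content was 42% and 38.5%. All 3 sites were centred in intron 1.

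For contrast, 2 free sites centred in a coding exon are shown in the same way. EMB2369, a gene for a tRNA synthetase of class I, held one of the free sites farthest from any H2A.Z peak. ELC, a gene for a protein with a ubiquitin-conjugating enzyme fold, held a free site 1 bp from such a peak.
EMB2369 (chr4:2128206-2128405, + strand): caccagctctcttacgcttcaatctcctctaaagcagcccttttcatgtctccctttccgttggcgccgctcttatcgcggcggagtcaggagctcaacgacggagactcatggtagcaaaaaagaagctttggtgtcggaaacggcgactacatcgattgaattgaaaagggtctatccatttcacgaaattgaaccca
ELC (chr3:3945343-3945542, - strand): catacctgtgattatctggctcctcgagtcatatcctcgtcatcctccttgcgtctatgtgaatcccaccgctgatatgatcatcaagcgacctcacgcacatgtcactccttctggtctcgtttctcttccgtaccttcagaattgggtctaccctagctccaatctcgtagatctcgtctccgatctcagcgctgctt
The windows had a GC content of 49.5% in EMB2369 and 50.5% in ELC. These windows are examples only. Over whole free sites the median GC content was 40.5% with the centre in a coding exon and 37.4% in an intron.

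H2A.Z-free sites made up a similar share of H4Ac sites on each chromosome. The shares were 61.8%, 64.5%, 63.6%, 63.6% and 63.6% on chromosomes 1 to 5. The free sites covered 6679 kb and had a median width of 910 bp, with the narrowest at 424 bp and the widest at 3653 bp, against a median of 942 bp for touched sites. All 3 WT H4Ac libraries covered at least 50% of 5311 free sites (75.5%), and 2 libraries did so at the other 1725. Among touched sites, 76.7% were covered by 3 libraries. Both kinds of site were therefore held by the H4Ac replicates to a similar degree.

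The share of free peaks was also alike within each H4Ac library, at 63.7% of peaks in replicate 1, 64.2% in replicate 2 and 63.1% in replicate 3. When each library was set only against the WT H2A.Z library of the same replicate number, the free shares were 76.0%, 85.3% and 80.9%. The WT H2A.Z lists touched 24.5%, 14.9% and 18.5% of all H4Ac sites, and the mbd9-1 lists touched 9.23%, 11.5% and 5.16%. Of the 4079 touched sites, 2190 were touched only in WT, 691 only in mbd9-1 and 1198 in both. A single list decided the status of 1529 touched sites (37.5%), and 114 were touched in all 6. A site thus counted as touched on the strength of 1 library in more than 1 of 3 cases, and leaving out WT H2A.Z replicate 1, the longest list, raised the free share to 68.9%.

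The boundary between free and touched sites was narrow for a small number of them. An H2A.Z peak lay within 10 bp of 8 free sites, within 50 bp of 48 and within 100 bp of 98. On the other side, 9 touched sites had at most 10 bases under H2A.Z peaks, 40 had at most 50 and 87 had at most 100. Just inside the boundary were the sites in ELC and AT5G55670, each 1 bp from a peak, and in GIF2, a gene for a coactivator of growth-regulating factors, 2 bp from a peak. Just outside were the sites in PTAC3, a gene of the plastid transcription machinery, with 1 base under a peak, and in AT3G49601 and AT4G27050, with 3 bases each.

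At the other extreme, some free sites lay far from any H2A.Z peak. The median distance from a free site to the nearest peak of the 6 lists was 2775 bp, with quartiles of 1300 and 5160 bp. The farthest was the site in AT4G04340, a gene for a protein of the early-responsive to dehydration family, at 42793 bp. The WT lists had their nearest peak 43260, 43344 and 43214 bp from it and the mbd9-1 lists 85542, 43142 and 42793 bp. The neighbouring site in EMB2369 followed at 37625 bp, so both belong to one stretch of chromosome 4. The site in AT1G42440, a gene for a protein of ribosomal RNA processing, was 37138 bp from the nearest peak.

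Runs of free sites were counted along the chromosomes. In the order of all H4Ac sites, free sites fell into 2484 runs with a median of 2 sites, and touched sites into 2485 runs with a median of 1. The longest run held 16 free sites over 187 kb, from position 21256198 to 21442977 of chromosome 1, and the longest run of touched sites held 12. Free sites made up 63.3% of all sites, so runs of them also arise when the order is random. Whether these runs differ from those of a random order was not tested.

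Free and touched sites had almost the same place relative to the TSS. The centre of a free site was at a median of 392 bp after the nearest TSS of a protein-coding gene, and that of a touched site at 388 bp. Within the libraries, the medians for free peaks were 386, 390 and 400 bp and those for touched peaks 387, 383 and 393 bp. The mean difference was 4.33 ± 4.62 bp (SD, n = 3 libraries, two-sided exact sign-flip permutation test, p = 0.5), and replicate 1 went against the other 2. Free sites were the more tightly placed, with 89.3% of centres in the first 1000 bp after a TSS against 83.4% of touched sites. Conversely, 5.63% of free and 9.07% of touched centres were at least 1000 bp from a TSS. The share that covered a TSS was 59.8% in both, but 6.58% of free and 10.8% of touched sites covered at least 2.

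**Figure D1:**
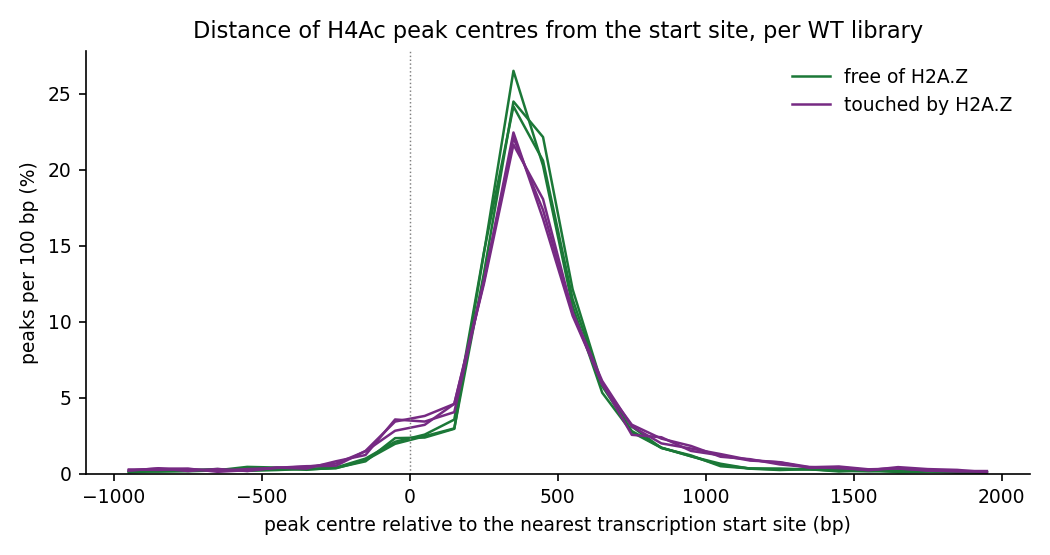
The horizontal axis gives the distance of the peak centre from the nearest TSS in bp (positive is downstream) and the vertical axis the percentage of peaks per 100 bp, with 1 line for each WT H4Ac library and kind of peak. All lines peak between 300 and 400 bp, where free peaks stand at 24.2% to 26.5% and touched peaks at 21.7% to 22.4%.

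Nearly all sites of both kinds lay in genes. The centre of 94.95% of free sites was in a protein-coding gene, 3.60% were up to 2000 bp upstream of one, 0.668% up to 1000 bp downstream and 0.782% elsewhere. For touched sites these shares were 93.2%, 4.66%, 0.588% and 1.59%. Within the libraries, 94.5%, 94.7% and 95.1% of free peaks and 93.2%, 92.6% and 93.6% of touched peaks were centred in a gene. The mean difference was 1.61 ± 0.395 percentage points (SD, n = 3, exact sign-flip permutation test, p = 0.25). This is the smallest p that 3 libraries allow, so that no comparison of free with touched peaks can pass a threshold of 0.05. In all, 10 such measures were tested, and the adjusted p was 0.278 for each except the distance from the TSS, where it was 0.5. Each of the other 9 differences had the same sign in all 3 libraries. The libraries share most of their sites, so their agreement shows little about other plants.

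Inside the gene, free sites were centred in introns more often than touched sites. Of the free sites, 46.7% had their centre in a coding exon, 35.5% in an intron, 12.1% in a 5' UTR and 0.569% in a 3' UTR. Of the touched sites, 59.5% were centred in a coding exon, 23.3% in an intron, 9.37% in a 5' UTR and 0.932% in a 3' UTR. In the 3 libraries the intron share was 34.4%, 34.9% and 34.8% of free peaks against 22.4%, 23.0% and 22.6% of touched peaks. The values did not overlap, and the difference was 12.1 ± 0.148 percentage points (SD, n = 3, exact sign-flip permutation test, p = 0.25). Coding exons went the other way, with 46.1% to 47.8% of free and 58.8% to 60.5% of touched peaks.

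**Figure D2:**
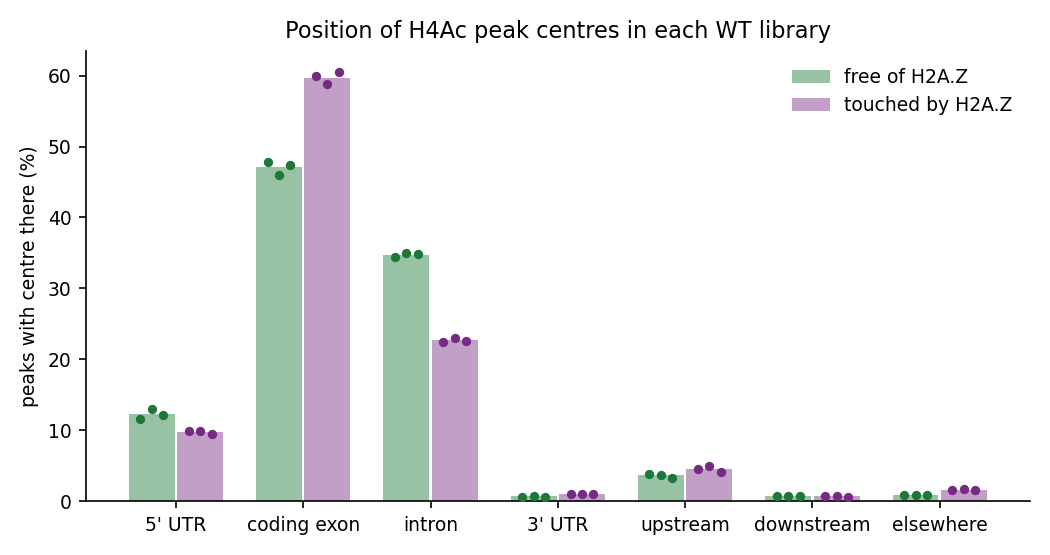
Bars give the mean percentage of H4Ac peaks with their centre in each kind of annotation, and the points the 3 WT libraries, for free and touched peaks. The intron bars stand at 34.7% for free and 22.7% for touched peaks, and the coding exon bars are reversed in order.

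The introns concerned were mostly first introns. Of intronic centres, 88.6% in free and 88.0% in touched sites fell in intron 1, so that intron 1 held 31.5% of all free centres and 20.5% of all touched ones. The gene at the centre had a single exon at 8.86% of free and 16.1% of touched sites. Among genes with at least 2 exons the intron share was 41.0% at free and 29.9% at touched sites.

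The first exon was shorter and the first intron longer in genes with free sites. The median first intron was 201 bp at free and 153 bp at touched sites, and the median first exon 352 and 397.5 bp. In the libraries, the median first intron was 199 bp in each for free peaks and 153, 151 and 153 bp for touched peaks, a difference of 46.7 ± 1.15 bp (SD, n = 3, exact sign-flip permutation test, p = 0.25). The first exon had medians of 352, 348 and 356 bp at free peaks and 397, 397 and 396 bp at touched peaks. The centre lay in exon 1 at 46.5% of all free and 56.5% of all touched sites. The part of first exon and first intron length in the intron share was not tested.

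An intron in the 5' UTR, which is spliced out before the start codon is reached, was also more common at free sites. Among genes with at least 2 exons, the first intron came before the start codon at 25.4% of free and 16.1% of touched sites. The libraries gave 25.2%, 26.0% and 25.4% for free peaks and 16.5%, 15.7% and 16.7% for touched peaks. The difference was 9.23 ± 0.943 percentage points (SD, n = 3, exact sign-flip permutation test, p = 0.25).

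Genes with free sites were also longer and had more exons. The median gene length was 2626 bp at free and 2433 bp at touched sites, with medians of 6 and 5 exons. In the libraries, gene length had medians of 2598, 2621.5 and 2622 bp at free peaks and 2423, 2441 and 2455 bp at touched peaks, a difference of 174 ± 6.79 bp (SD, n = 3, exact sign-flip permutation test, p = 0.25). Read from the side of the gene, 49.2% of H4Ac sites in genes with 1 exon were free, 60.8% with 2 to 3 exons, 66.0% with 4 to 7 and 68.4% with 8 or more. By gene length the free share was 51.3% under 1 kb, 59.9% from 1 to 2 kb, 64.8% from 2 to 4 kb and 68.5% at 4 kb or more. By first intron it was 61.4% under 150 bp, 66.7% from 150 to 300 bp, 71.4% from 300 to 600 bp and 71.3% above that.

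The sequence of free sites was poorer in G and C. The median GC content was 38.7% at free and 40% at touched sites. In the libraries it was 39.1%, 38.9% and 39.0% for free peaks against 40.5%, 40.3% and 40.4% for touched peaks, a difference of -1.39 ± 0.0109 percentage points (SD, n = 3, exact sign-flip permutation test, p = 0.25). The free share was 77.4% of sites under 36% GC, 68.6% at 36% to 38%, 62.9% at 38% to 40%, 58.9% at 40% to 42% and 52.8% at 42% or more. Introns of Arabidopsis are AT-rich, and GC content moves with the kind of annotation. Among sites centred in a coding exon the medians were 40.5% for free and 41.3% for touched sites, among intronic sites 37.4% and 37.97%, and among 5' UTR sites 37.9% and 39.0%. Within each kind of annotation the difference had the same sign and was smaller than over all sites. GC content can also alter how well DNA is amplified in a library, and its part in the H2A.Z calls was not tested. The ratio of observed to expected CG dinucleotides had a median of 0.846 at free and 0.871 at touched sites.

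**Figure D3:**
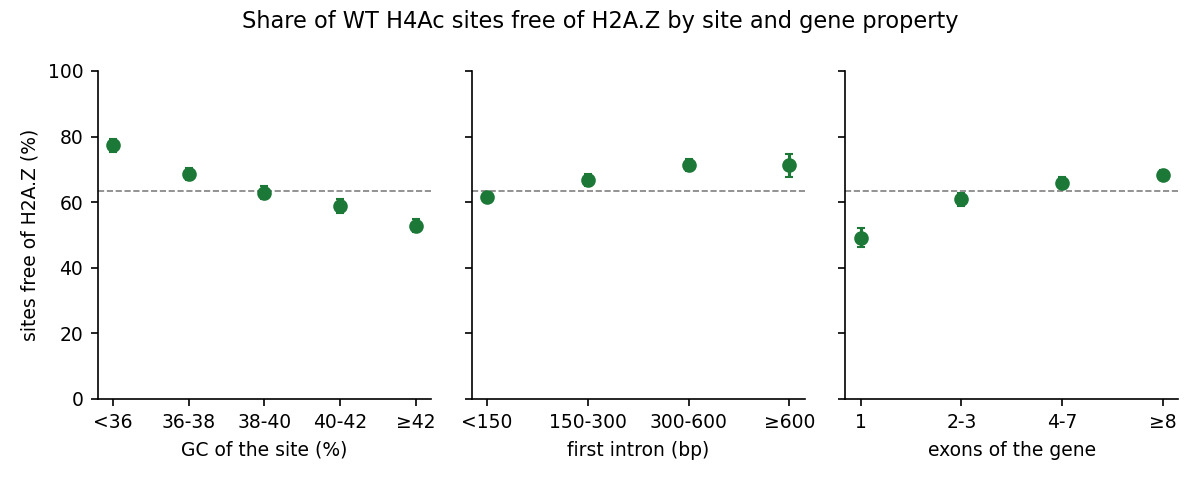
The vertical axis gives the percentage of WT H4Ac sites free of H2A.Z by GC content of the site, length of the first intron and number of exons of the gene at the centre, with 95% Wilson intervals for counting error only, and the dashed line marks the 63.3% of all sites. The share falls from 77.4% to 52.8% with rising GC content and rises from 49.2% to 68.4% with the number of exons.

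Width had an uneven relation with H2A.Z. Of sites narrower than 500 bp 60.3% were free, of those from 500 to 800 bp 65.1%, from 800 to 1200 bp 65.5%, from 1200 to 2000 bp 53.6% and of wider ones 43.6% (75 of 172). A wider site has more bases that a peak can touch, and the part of this in the shares was not tested.

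The widest free sites covered in every H4Ac library illustrate the genes concerned. The widest lay in AT2G42370, a gene for an uncharacterized protein, from position 17642302 to 17645954 of chromosome 2, and had its centre in exon 1. The H4Ac libraries covered 95.9%, 92.4% and 93.3% of its 3653 bp, and the nearest H2A.Z peak of any list was 2644 bp away. The site in AT4G27745, a gene of the Yippee family of zinc-binding proteins, had 3557 bp and covered 3 TSS, so it cannot be assigned to a single gene. AT1G06050 and AT4G20300 had sites of 2646 and 2642 bp, both more than 3 kb from an H2A.Z peak in every list. Outside gene bodies, the widest was the site of 2767 bp at RCE1, a gene for an enzyme that conjugates the ubiquitin-like protein RUB. Its centre was 154 bp before the TSS, and the nearest peaks were at 2182, 2208 and 2310 bp in WT and at 4629, 4639 and 4830 bp in mbd9-1. The sites at RCE1 and AT1G06050 each covered 2 TSS, so they too cannot be assigned to a single gene.

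Counted by genes, 10410 of 27444 protein-coding genes (37.9%) held the centre of an H4Ac site. In 6629 of them (63.7%, 95% Wilson interval 62.8% to 64.6%) every such site was free, in 3757 every site was touched and in 24 there were both. Of the 6629 genes, 27 held 2 or more free sites.

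Genes for the translation machinery and for the proteasome had mostly free sites. The lists below were drawn by words in the RefSeq annotation, which also catch related genes, such as proteins with a proteasome component domain that are not subunits. No test was made of them, and the Wilson intervals cover counting error only. Of 204 ribosomal protein genes with an H4Ac site, out of 328 without words for an organelle, 159 had free sites alone (77.9%, 71.8% to 83.1%), against the 63.7% of all genes. Of 57 genes for translation initiation and elongation factors 47 did (82.5%, 70.6% to 90.2%), and of 32 proteasome genes 26 (81.3%, 64.7% to 91.1%). Examples were PBG1 and PBE1, which encode beta subunits of the 20S proteasome, AT4G20980 for a subunit of the translation initiation factor eIF-3 and AT1G36730, shown above. The site at PBE1 was 662 bp and the site at AT4G20980 492 bp from an H2A.Z peak, so these were not all remote from H2A.Z. The site at PBG1 also covered the TSS of its neighbour TPR5.

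The next lists held 17 to 36 genes with a site, and each of their intervals included the value for all genes. Among splicing factors 25 of 36 genes had free sites alone (69.4%), among nuclear photosynthesis genes 13 of 18 (72.2%), among WRKY factors 14 of 18 (77.8%) and among core histones 10 of 17 (58.8%). PSB29, whose product acts in photosystem II assembly, had a free site 303 bp from the nearest H2A.Z peak, and WRKY18, a regulator of defence genes, one at 854 bp.

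The free share was lowest in the lists of pentatricopeptide proteins and cytochromes P450. Of 130 genes for pentatricopeptide repeat proteins, which bind organellar RNA, 63 had free sites alone (48.5%, 40.04% to 57.0%). REME1, a gene of this family that acts in RNA editing in mitochondria, was one of them. Of 40 cytochrome P450 genes, whose products oxidise many plant metabolites, 20 did (Wilson interval 35.2% to 64.8%). Protein kinases had 224 of 385 (58.2%, 53.2% to 63.0%), and this interval lay below the value for all genes. F-box proteins had 59 of 105 (56.2%, 46.6% to 65.3%), heat shock proteins 31 of 56 (55.4%, 42.4% to 67.6%) and immune receptors of the NBS-LRR type 32 of 58 (55.2%, 42.5% to 67.3%), and these intervals, like that of cytochromes P450, included the 63.7% of all genes. CLV1, the receptor kinase that limits the size of the shoot meristem, held a free site of 2150 bp, and RPS4, an immune receptor, one of 1689 bp that covered 2 TSS. Pentatricopeptide genes often have a single exon, as did REME1 and AT5G18390, and the part of gene structure in these shares was not tested.

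**Figure D4:**
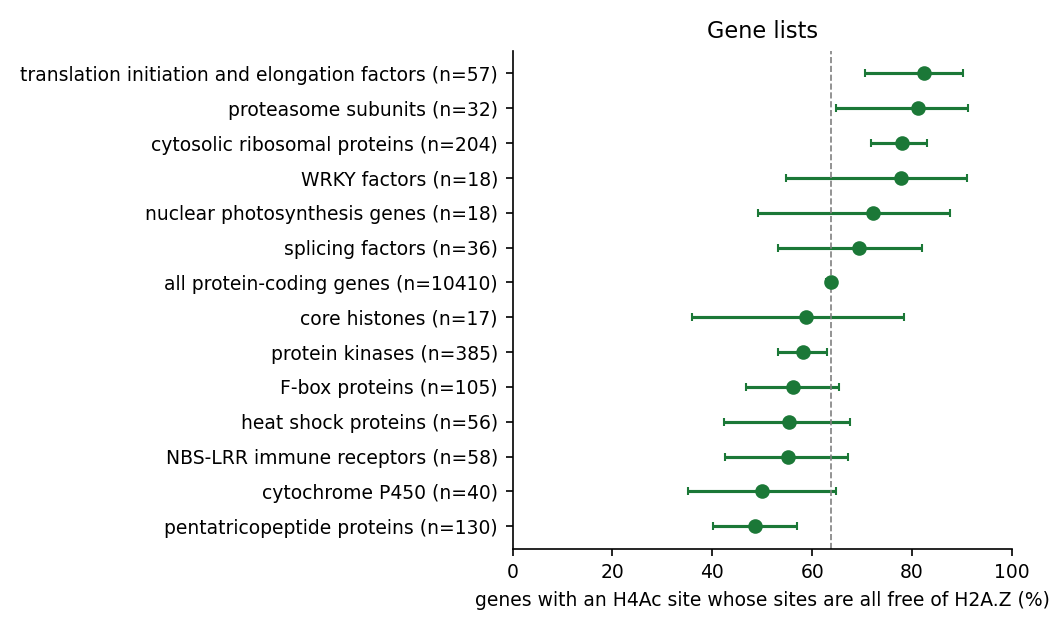
Points give, for each gene list, the percentage of genes with an H4Ac site whose sites were all free of H2A.Z, with 95% Wilson intervals for counting error only, and n is the number of genes with a site. The dashed line is the 63.7% of all protein-coding genes, and the lists run from 48.5% for pentatricopeptide proteins to 82.5% for translation factors.

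Among other annotated transcripts, 201 of 316 sites centred in a long non-coding RNA gene were free (63.6%). The counts were 18 of 22 for small nucleolar RNA genes (81.8%), 5 of 7 for microRNA genes and 4 of 7 for tRNA genes, and 29 of 68 for pseudogenes (42.6%). Many of these overlap a protein-coding gene and lists this small allow no comparison.

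A telo-box, the motif AAACCCTA, was found around the centre of free sites more often than around that of touched sites. The telo-box is known from promoters and 5' UTRs of translation genes, and in Arabidopsis it is bound by telomere repeat binding factors. It was searched on both strands in the 300 bp around the centre, and occurred in 15.9% of free, 10.9% of touched and 14.1% of all H4Ac sites. The libraries gave 15.8%, 15.4% and 15.9% of free and 10.7%, 11.5% and 11.1% of touched peaks, a difference of 4.63 ± 0.632 percentage points (SD, n = 3, exact sign-flip permutation test, p = 0.25). By annotation of the centre, it was present in 11.2% of free and 9.32% of touched sites in coding exons, 19.5% and 14.1% in introns, and 23.6% and 17.0% in 5' UTRs. In the 250 bp before the TSS the order was the opposite, with 3.18% of genes with free sites alone, 3.86% of genes with touched sites alone and 4.49% of all protein-coding genes.

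The 30 bases around the telo-box of 5 named free sites show the motif, in capitals, in either direction on the strand of the gene. GIF2, AT1G42440 and TPR15, a gene for a DnaJ protein with tetratricopeptide repeats, had it in the 5' UTR. AT3G02200, a gene for a protein with a proteasome component domain, and AT1G07660, a histone gene, had it in an intron.
GIF2 (chr1:72530-72559, + strand): gaagacgaaatTAGGGTTTagttggggcaa
AT1G42440 (chr1:15899977-15900006, - strand): aaaattgaaatTAGGGTTTatactttaaag
TPR15 (chr2:17317502-17317531, + strand): gcaaatcccaaAAACCCTAacggtactgtg
AT3G02200 (chr3:406563-406592, + strand): atatagagattTAGGGTTTcattttcttct
AT1G07660 (chr1:2369139-2369168, + strand): atctggaaatcTAGGGTTTctgaatagttt
These matches lay 206, 113, 50, 238 and 321 bp after the TSS, in the order shown. A match is a description of the sequence and does not show that a factor binds there.

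The other motifs are given in the same order. The core of site II elements, GGCCCA, was found around the centre of 2.91% of free, 4.85% of touched and 3.63% of all sites. In the 250 bp before the TSS it was present in 18.0% of genes with free sites alone, 16.8% of genes with touched sites alone and 13.7% of all protein-coding genes. The letters of the TATA box, TATAAA, occurred around the centre of 18.0% of free, 15.3% of touched and 17.0% of all sites. The G-box, CACGTG, was in 2.94%, 3.16% and 3.02%, and the repeat GAGAGAGA in 11.03%, 12.1% and 11.4%. Before the TSS, TATAAA was in 46.1% of genes with free sites alone, 45.1% with touched sites alone and 47.3% of all protein-coding genes. There the G-box had 6.73%, 6.47% and 6.49%, and the repeat 3.74%, 4.34% and 4.91%. The promoter of AT3G16080, a gene for a zinc-binding ribosomal protein whose TSS lies in a free site of 2277 bp, had GGCCCA at 3 places, given in capitals in the 200 bases before the TSS.
AT3G16080 promoter (chr3:5454562-5454761, + strand): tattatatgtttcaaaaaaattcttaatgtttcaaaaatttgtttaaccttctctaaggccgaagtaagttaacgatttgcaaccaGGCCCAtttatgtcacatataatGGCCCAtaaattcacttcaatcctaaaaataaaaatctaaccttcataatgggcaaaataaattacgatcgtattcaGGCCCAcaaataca
The site of AT3G16080 also covered the TSS of its neighbour Hrd1A, and its centre was in the 3' UTR of AT3G16080.

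Most genes with free H4Ac sites had no H2A.Z peak in any part of the gene. This was so for 6284 of the 6629 genes (94.8%), against 52.7% of all protein-coding genes. Of the 10410 genes with an H4Ac site, which include the 6629, 6423 (61.7%) had no H2A.Z peak in the gene. The rule fixed much of the 94.8%, since these 6629 genes were chosen with no H2A.Z peak on their H4Ac sites. A WT H2A.Z peak lay elsewhere in 153 of the genes and an mbd9-1 peak in 237. By library, peaks were found in 1.42%, 0.981% and 1.49% of the genes in WT and in 1.18%, 0.9504% and 2.28% in mbd9-1. The ranges overlapped (mean 1.297 ± 0.277% in WT and 1.47 ± 0.710% in mbd9-1, SD, n = 3, two-sided exact permutation test, p = 0.9). The higher count in mbd9-1 came from replicate 3, the list of narrow peaks, with peaks in 151 genes against 63 and 78 in the other mbd9-1 libraries. Of its peaks centred in these genes, 67.9% were past the middle of the gene, against 40.8% to 54.5% in the other 5 libraries. Without that replicate the WT mean was the higher, by 0.237 percentage points. Among genes whose sites were free of the WT lists alone, the mbd9-1 mean was the higher (difference -3.77 points, p = 0.1 in the same exact test), and there an mbd9-1 peak may lie on the H4Ac site itself.

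Outside the sites, H2A.Z peaks lay near fewer free sites in mbd9-1 than in WT. An H2A.Z peak was within 1000 bp of 10.8%, 7.43% and 9.37% of free sites in WT replicates 1, 2 and 3, and of 5.24%, 6.15% and 4.22% in mbd9-1. All WT values were above all mbd9-1 values, with means of 9.19 ± 1.67% and 5.21 ± 0.967% (SD, n = 3). The difference was 3.98 percentage points (two-sided exact permutation test, p = 0.1, the smallest that 3 against 3 libraries allow). It was 1.85 points within 500 bp and 7.41 points within 2000 bp, each with p = 0.1 in the same exact test. The gap depends on the selection: among sites free of the 3 WT lists alone, which mbd9-1 peaks may touch, it was 0.431 points (p = 0.8 in the same exact test). The median distance to the nearest peak was 4365, 6364.5 and 5191 bp in WT and 8306.5, 7120.5 and 9994.5 bp in mbd9-1. Every mbd9-1 list also held fewer peaks than every WT list, and a shorter list lies near fewer sites anywhere, so a change beside free sites cannot be told apart from the change in the lists as a whole.

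**Figure D5:**
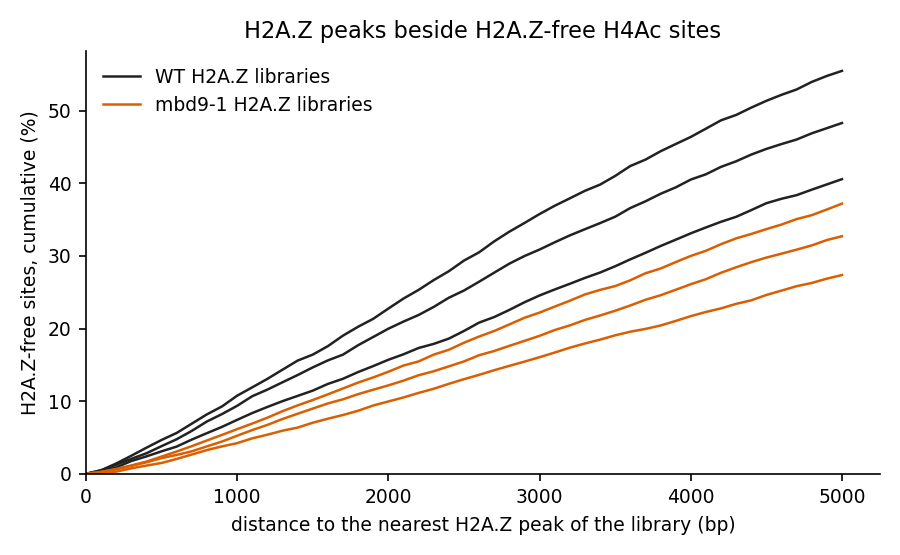
The horizontal axis is the distance from a free site to the nearest H2A.Z peak of a library in bp and the vertical axis the cumulative percentage of the 7036 free sites, with 1 line per library. At 1000 bp the WT lines stand between 7.43% and 10.8% and the mbd9-1 lines between 4.22% and 6.15%.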

How the data were processed

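Per the Methods, the authors aligned reads to TAIR10 (Bowtie2), filtered them (Samtools) and called peaks library by library, with HOMER and input as reference. The versions of Bowtie2 and HOMER and the threshold used were not given in the sources used here. The deposited lists hold chromosome, start and end, read as BED positions, with no count, score or p-value, so they do not give the depth of a library. The study's read totals per library were not used here.

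Sites were rebuilt from 9 lists with Python 3.11.15 and NumPy 2.4.6, and bedtools 2.31.1 gave the same 11115 sites and 7036 members. The steps were tested on simulated lists. Genes and sequences came from RefSeq TAIR10.1, and every peak fitted its chromosome lengths. The authors' build is TAIR10.

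Free and touched peaks of a library were compared by exact two-sided sign-flip tests, with the library as the block, and genotypes by exact permutation tests. Adjustment was by Benjamini-Hochberg. Per the Methods the chromatin of each sample was divided between both antibodies. That WT H2A.Z and H4Ac libraries with the same number share a sample was inferred from their titles, and nothing ties numbers across genotypes. Wilson intervals have a level of 95% and cover counting error only.

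Members and lists were chosen with earlier results of these data known, and intron share, first exon and intron, exon number, telo-box and H2A.Z elsewhere in the gene were chosen for testing after their values were seen. Named sites were the widest members covered in every library (6 in genes, 3 outside), the 3 farthest from and the 3 nearest to H2A.Z, the 3 touched sites with the fewest bases under H2A.Z, and up to 3 widest members per gene list. Alternatives changed the overlap, merging, H2A.Z lists, widths, gene set and replicates. Figures were drawn with matplotlib 3.10.9.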

Additional observations from a re-analysis of the deposited data

How the results depend on the processing

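The share of free sites depended most on what counts as H2A.Z. It was 63.3% as reported, 69.5% with the WT H2A.Z lists only, 78.8% with reproducible H2A.Z sites only, 75.1% when a site under 50% covered counted as free, 57.7% when no peak was allowed within 500 bp, 77.2% without the narrowest H2A.Z peaks and 65.0% among sites of 500 to 800 bp. The narrowest peaks were those up to the lower quartile of width in each list. In mbd9-1 replicate 3 the narrowest and the median width were both 381 bp, so every peak up to the median was dropped there. Leaving out 1 library at a time gave 62.9% to 68.9%, the highest without WT H2A.Z replicate 1.

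The differences in GC content, gene length, intron share, first intron, introns before the start codon and telo-box kept their direction in every alternative that was run. The intron share ranged from 10.6 to 13.1 percentage points and the first intron from 35.7 to 51.3 bp. Counting sites under 50% covered as free turned the share of centres in genes to -0.718 percentage points and the distance from the TSS to -8.83 bp. That distance was also -0.167 bp at widths of 500 to 800 bp, and -1.33 to 7.67 bp with 1 library left out, negative without WT H2A.Z replicate 1. The difference in genes with H2A.Z elsewhere was -0.171 points as reported and -0.473 to 0.237 with 1 library left out. It turned to 1.82 with reproducible H2A.Z sites, 2.11 with the 50% rule and 2.78 without the narrowest peaks. In those settings all peaks of the lists were still counted, so some may lie on the H4Ac site itself. The difference was -3.77 points (p = 0.1, exact permutation test) with the WT H2A.Z lists only, where mbd9-1 peaks may touch the sites. The causes were not tested.

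The difference of 3.98 points in free sites near H2A.Z fell to 0.431 (p = 0.8, exact permutation test) with the WT H2A.Z lists only. It fell to 2.41 with no peak within 500 bp, and rose to 6.64 with the 50% rule and 6.56 without the narrowest peaks. With the WT lists only, the 50% rule or the narrowest peaks dropped, peaks may touch the sites, and these were counted as near. With 1 library left out the difference was 3.06 to 4.90. With the replicate block, this difference had p = 0.25 in an exact sign-flip permutation test, and without it p = 0.1 in the exact unpaired one. The 8 differences between free and touched peaks with no replicate block had p = 0.1, except 0.6 for the distance from the TSS, in exact permutation tests. No design here can pass 0.05. Peaks kept only where reproducible, an alternative added after the data were seen, changed no direction. Splitting by the H2A.Z library of the same number gives no merged sites, so it has no value for the share of sites. The lists hold no depth, so a missing peak may be a weak one.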
